A study of Mus musculus with 63 samples.

Results

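The genes described here encode the proteins of the cytosolic ribosome, with the pseudogenes copied from them, in heart RNA of 8 inbred mouse strains. Members were taken by symbol: every gene whose symbol begins with Rpl or Rps and a number, or with Rplp and a number, without the Rps6k kinases. This gave 123 of the 19220 genes in the deposited count table, 35 with "-ps" in the symbol (called pseudogenes here) and 88 without (called genes). Of the 88 genes 52 carry a large subunit symbol (Rpl) and 36 a small subunit symbol (Rps). GENCODE types 84 of the genes as protein coding and the other 4 (Rpl37rt, Rps3a2, Rps3a3 and Rps4l) as pseudogenes, while 3 of the "-ps" symbols (Rpl10-ps3, Rpl9-ps6 and Rps12-ps3) are typed as protein coding. One gene, Rps19bp1, encodes a protein that binds a ribosomal protein and is no part of the ribosome.

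The strains are the founders of the Diversity Outbred mouse population, labelled B6, 129, AJ, NOD and NZO (common laboratory strains) and WSB, Cast and PWK (wild-derived strains), with 8 libraries each apart from 7 for Cast. All mice were on a diet high in fat and sugar, with 45% of it fat per the labels, so no strain has a control diet. Nothing in the labels beyond the titles says that the libraries are separate animals, and p-values then measure only the spread between these libraries. The labels used here give neither sex nor age. The reference genome comes from B6, and Cast and PWK belong to other subspecies, which differ most from it in sequence.

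A ribosome holds 1 copy of nearly every ribosomal protein, and the genes for them are transcribed together at high levels in every tissue. Their mRNAs start with a short run of pyrimidines, the TOP motif, through which mTOR signalling adjusts their translation. Because these mRNAs are abundant, they have often been copied back into the genome without introns, so that each gene has single-exon copies elsewhere, called processed pseudogenes. A short read from an exon of the gene may match such a copy as well as the gene, and the counts on either then depend on how reads are assigned. A few ribosomal proteins also have a second gene of their own, such as Rpl3l, the striated-muscle form of Rpl3.

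One library stood apart, and results that rest on it are given with and without it. Members took 2.12% of the counts in WSB_1 (replicate 1 of WSB) and 0.916 to 1.06% in the other 7 WSB libraries. Short and long transcripts were also compared, with each gene first set relative to its median over libraries. In each library, the median level of genes with transcripts of at least 5000 bases was subtracted from that of genes up to 1000 bases. This measure was 1.02 log2 units in WSB_1 and between -0.18 and 0.31 in the other 62 libraries. The summed level of 6 cardiomyocyte markers was 37246 CPM (counts per M counted, with libraries scaled to each other) in WSB_1 and 56492 to 64058 CPM in the other WSB libraries. WSB_1 was the highest WSB library for red cell (1974 CPM, others up to 935), mesothelial (94.0, 38.1) and Schwann markers (27.3, 14.8). It was also highest for endothelial (1034, 799), adipocyte (47.0, 15.0), atrial (1480, 1340), fibroblast (1019, 957) and T cell markers (1.56, 1.54). For macrophage markers it was lowest (68.4, others from 89.3), and for smooth muscle and B cell markers it lay within the others. No marker of the 12 lists of heart cell types was at 0 in every library of a strain, and the part of cell makeup in the results below was not tested. In whole tissue, fewer cells of a type and less RNA per cell cannot be told apart. The libraries held between 21.8 M and 42.9 M counts each.

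By the median range of strain means, ribosomal protein genes varied less among the strains than all genes tested, and the tested pseudogenes varied more. After genes with low counts were left out, 87 genes and 20 pseudogenes remained, and the 16 left out were Rpl39l and 15 pseudogenes, none above 0.586 CPM in any library. In edgeR's test over all strains, 77 of the 87 genes and 17 of the 20 pseudogenes differed at an adjusted p of 0.05, against 89.4% of all 16425 genes tested. The share that passed was thus near the background for both classes. The size of the differences was not: the range of the 8 strain means had a median of 0.43 log2 units over the genes, 2.39 over the pseudogenes and 0.78 over all genes tested. A range of at least 1 log2 unit was found for 20 of 87 genes and 15 of 20 pseudogenes, against 39.1% of all genes. The pseudogenes that passed the filter are those with counts in some strain, so these figures do not describe all 35. The filter itself favours pseudogenes that are high in some strain, and so a wide range. Genes of like level were not compared, and some tested pseudogenes were low, such as Rps6-ps4 with an average of 0.18 CPM.

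Near-identical copies are common in this family. Aligned by transcript, 59 of the 88 genes and 34 of the 35 pseudogenes had at least 1 copy with 95% identity over at least 50% of the shorter transcript, and 68 further genes that are no members, most of them predicted genes with Gm symbols, joined these groups. All 34 aligned pseudogenes have a single exon. Over the coding sequence, 8 of the 20 pseudogenes past the filter were identical to their gene from end to end, and the median number of differing bases was 0.5. None of the 14 aligned pseudogenes below the filter was identical, and their median was 4.5 differing bases.

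The widest strain differences in the family fell on such pairs, and the sum of a pair was nearly level. Rpl9 and Rpl9-ps6 are the clearest case. Rpl9 encodes a large subunit protein (ENSMUSG00000047215, GRCm38 chromosome 5, 65388364 to 65391444, minus strand), and Rpl9-ps6 is a single-exon copy on chromosome 19 (ENSMUSG00000062456, 32465885 to 32466575, minus strand). The 576 coding bases differ at 1 position, G266A, counted from the A of the start codon with the gene's base first. The stretch around it is shown to let a reader see how little separates the copies, from GRCm38 by way of GENCODE transcripts, 5′ to 3′ in the coding sense, with the differing base in capitals. It lies at chr5:65389573-65390410 (spliced) in Rpl9 and at chr19:32466256-32466316 in the copy, both on the minus strand.
Rpl9: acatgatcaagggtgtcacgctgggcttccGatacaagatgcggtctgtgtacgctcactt
Rpl9-ps6: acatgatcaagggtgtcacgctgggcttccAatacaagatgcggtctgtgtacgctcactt

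Rpl9 was at 148 to 185 CPM in the 7 Cast libraries, with a median of 165 CPM. In the other 56 libraries it was between 4.01 CPM, in B6, and 16.0 CPM, in AJ, so Cast did not overlap with any other strain. Rpl9-ps6 was the mirror image, with 0 to 0.299 CPM and 12 counts in all over the Cast libraries and 111 to 229 CPM in the other 56, where 229 CPM was WSB_1. The pair together gave 166 ± 14 CPM (SD, n = 7) in Cast and strain means of 130 to 156 CPM in the others. The range of the family sum was 0.35 log2 units, against 10.53 for Rpl9-ps6 alone. In B6, the strain of the reference genome, Rpl9 itself held 4.03% of the counts of its copies.

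Rpl19, Rpl27, Rpl17 and Rps12 split in the same way, but in Cast and PWK rather than in Cast alone. Rpl19 encodes a large subunit protein (chromosome 11, 98026710 to 98030492), and Rpl19-ps11 lies on chromosome 8 (19492906 to 19493623), both on the plus strand. The copies differ at 1 of 588 coding bases, G191A, and the bases around it are chr11:98028394-98028454 and chr8:19493096-19493156, with the differing base in capitals.
Rpl19: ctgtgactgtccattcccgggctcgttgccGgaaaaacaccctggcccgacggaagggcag
Rpl19-ps11: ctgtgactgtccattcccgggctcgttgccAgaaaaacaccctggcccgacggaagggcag

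Rpl19 had a median of 168 CPM in Cast (147 to 179) and 154 CPM in PWK (138 to 165), and lay between 4.77 and 29.9 CPM in all other libraries. Rpl19-ps11 stayed at or below 0.299 CPM in every Cast and PWK library and lay between 127 and 308 CPM in the rest. Summed, the strain means of the Rpl19 family ranged over 0.24 log2 units, which did not pass the test (adjusted p = 0.0558, and 0.000374 without WSB_1). Rpl27 was at 81.5 ± 10.1 CPM (SD, n = 7) in Cast and 79.7 ± 3.9 CPM (SD, n = 8) in PWK, and its strain means elsewhere were 6.7 to 8.64 CPM. Its pseudogene Rpl27-ps3, identical over the whole coding sequence, had strain means of 0.239 CPM in Cast, 0.0951 CPM in PWK and 68.7 to 90.8 CPM elsewhere.

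Rpl17 and Rps12 repeated this split. For Rpl17 the median was 139 CPM in Cast and 135 CPM in PWK, and no other library exceeded 6.35 CPM. Rpl17-ps8 had strain means of 0.863 CPM in Cast, 0.533 CPM in PWK and 126 to 149 CPM in the other 6 strains, and the family sum did not pass the test over strains (range 0.19 log2 units, adjusted p = 0.145, and 0.0188 without WSB_1). Rps12, a small subunit protein gene, was at 73.6 ± 6.12 CPM (SD, n = 7) in Cast and 61.3 ± 3.27 CPM (SD, n = 8) in PWK, and its strain means elsewhere were 0.59 to 1.3 CPM. Rps12-ps3 still held 2.72 ± 0.36 CPM (SD, n = 7) in Cast and 6.38 ± 1.02 CPM (SD, n = 8) in PWK, and had strain means of 51.8 to 76.7 CPM in the others. The Rps12 family sum ranged over 0.54 log2 units (adjusted p = 0.000468), the widest of these 5 sums.

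**Figure D1:**
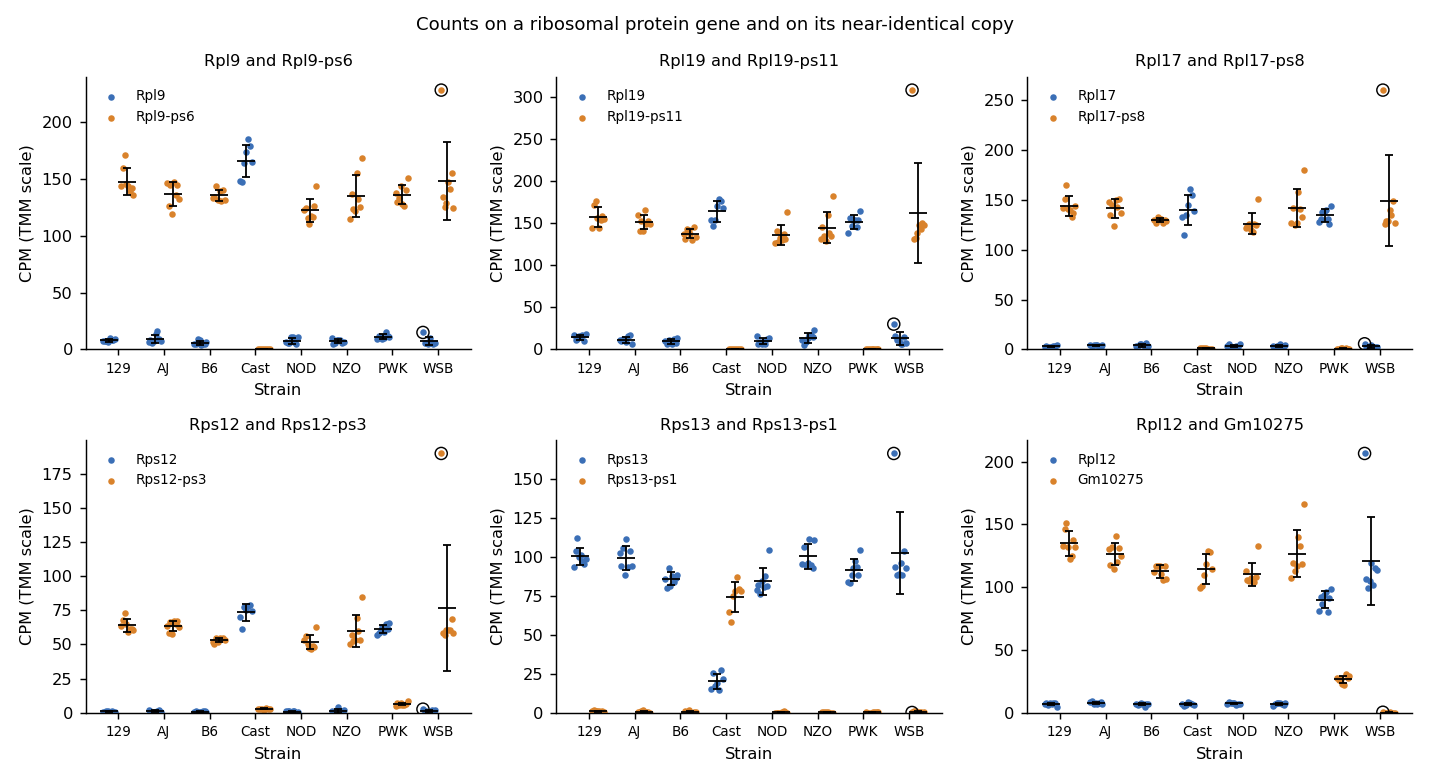
Level in CPM (linear axis from 0) of a gene and a near-identical copy in each of the 63 libraries, by strain, for 6 pairs. Points are libraries, bars are mean ± SD and a circle marks WSB_1. In the Rpl9 panel the 7 Cast libraries sit at 148 to 185 CPM for the gene and at or below 0.299 CPM for the copy, and the other strains show the opposite.

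The split ran in the other direction for Rps13, Rpl29 and Rpl37. Rps13 encodes a small subunit protein (chromosome 7, 116331505 to 116334195, minus strand). Its pseudogene Rps13-ps1 on chromosome 8 (87047689 to 87048226, plus strand) differs from it at 2 of 453 coding bases, T411C and A429G. These lie at chr7:116331553-116332420 (spliced) and chr8:87048100-87048172 and are in capitals.
Rps13: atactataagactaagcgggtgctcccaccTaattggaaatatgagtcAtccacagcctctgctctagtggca
Rps13-ps1: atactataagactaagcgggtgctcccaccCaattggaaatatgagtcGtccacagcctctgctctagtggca

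Here the gene was low in Cast, with a median of 19.1 CPM (14.6 to 27.1), and lay between 76.4 and 166 CPM in the other libraries. The pseudogene was at 58.0 to 87.0 CPM in Cast and no higher than 1.99 CPM elsewhere. Rps13 alone was lower in Cast than in the mean of the other strains by 2.24 log2 units (SE 0.09, adjusted p = 9.29e-32), while the family sum ranged over 0.26 log2 units. Rpl29 was at 21.9 ± 3.83 CPM (SD, n = 7) in Cast and had strain means of 75.9 to 97.0 CPM elsewhere, and its copy Gm10709 was at 58.3 ± 8.72 CPM in Cast and had strain means no higher than 0.739 CPM elsewhere.

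Rpl37rt is a retrotransposed copy of Rpl37 that carries no "-ps", and so counts as a gene by the symbol rule. It lies on chromosome 5 (115102923 to 115110268, minus strand) and differs from Rpl37 at 1 of 291 coding bases, G249A, in capitals below, at chr15:5117698-5118621 (plus strand, spliced) and chr5:115103243-115103303 (minus strand).
Rpl37: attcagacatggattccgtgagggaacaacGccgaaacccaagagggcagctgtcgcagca
Rpl37rt: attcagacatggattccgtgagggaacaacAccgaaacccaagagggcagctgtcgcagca

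Rpl37rt was at 28.9 to 41.9 CPM in Cast and 33.6 to 45.5 CPM in PWK, and no library of another strain exceeded 5.05 CPM. Rpl37 was lower in those 2 strains, at 41.7 ± 4.57 CPM (SD, n = 7) and 42.6 ± 2.94 CPM (SD, n = 8), than in the others, with strain means of 58.0 to 75.7 CPM. Per kilobase of transcript, Rpl37rt reached 1.09 ± 0.09 (SD, n = 7) of the level of Rpl37 in Cast and 1.13 ± 0.10 (SD, n = 8) in PWK. Its range of 6.30 log2 units was the widest of any family by symbol, since the symbol rule does not join it to Rpl37.

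Rpl12 followed PWK and WSB. This large subunit gene was at 80.0 to 98.2 CPM in PWK and 99.4 to 119 CPM in WSB, with 207 CPM in WSB_1, and no other library exceeded 9.31 CPM. Its copy Gm10275, identical over 495 coding bases, had a strain mean of 0.121 CPM in WSB, 26.6 ± 2.86 CPM (SD, n = 8) in PWK and 110 to 135 CPM in the others. Summed, the copies had strain means from 117 CPM in PWK to 142 CPM in 129.

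Some pseudogenes had few or no counts in 1 or 2 strains while their gene took most of the family's counts everywhere. After the estimated counts were rounded, Rpl31-ps8 had 0 in all 8 PWK libraries, and 3 counts over those libraries would be 0.0108 CPM. Its lowest strain mean elsewhere was 14.9 CPM, so it was at least 1376-fold lower in PWK. That bound covers counting error only. Rpl31 was at 126 ± 6.55 CPM (SD, n = 8) in PWK and held 84.8 to 87.5% of the group's counts in the other strains. Rpl10a-ps1 had strain means of 0.011 CPM in Cast and 0.056 CPM in PWK, against 9.64 to 15.1 CPM elsewhere (7.08 CPM in WSB without WSB_1, which was at 42.4 CPM). Its lowest WSB library, at 0.218 CPM, was below the highest PWK library, at 0.331 CPM, so those strains overlapped. Rps16-ps2, by contrast, stayed present in all strains, with strain means from 13 CPM in PWK to 21.5 CPM in WSB (17.4 without WSB_1). Of the 26 families with a pseudogene, 6 shifted their pseudogene share by over 50 percentage points between strains, and 14 by under 5 points.

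**Figure D2:**
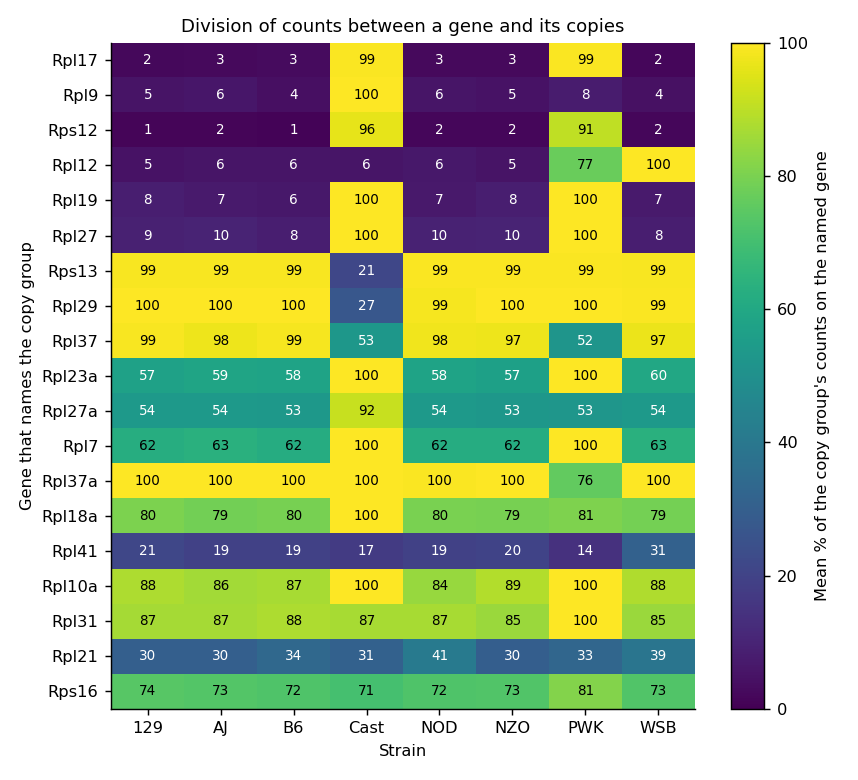
Share of a copy group's counts that fell on the named gene, as the mean percent of libraries in each strain, for the 19 groups of near-identical copies whose share spans at least 10 points. Rpl9 holds 4.03% in B6 and 99.95% in Cast, and Rps13 holds 99.1% in B6 and 21.4% in Cast.

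Across all 55 groups of at least 2 near-identical copies, the share on the named gene spanned over 50 percentage points among strains in 8 groups, 10 to 50 points in 11 and under 5 points in 31. In 12 of the 55 groups the named gene held under 50% of the counts in B6. Rpl10, an X-linked gene, was one that stayed so in every strain, with 9.66% to 18.2% of its group's counts, and most of the rest was on Rpl10-ps3, which is identical to it over the coding sequence. The sources used here do not say how counts were divided among copies, and whether the division follows transcription or the assignment of reads was not tested. Levels of single members of these groups are therefore uncertain.

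Summing copies narrowed the widest strain differences in the family, and most summed entries still differed among the strains. With genes and pseudogenes summed by symbol, 76 of 87 families differed among the strains (89.4% of all entries in that fit), and 84 of 87 without WSB_1 (92.3% of entries), with a median range of 0.38 log2 units. With all copies summed by alignment, 71 of 83 groups differed (89.4% of entries), and 81 of 83 without WSB_1 (92.3% of entries), with a median range of 0.33. Of the 83 groups, 28 hold 1 gene, which summing leaves unchanged. A range of at least 1 log2 unit was found for 20 of 87 genes, 14 of 87 families and 3 of 83 copy groups. These 3 groups were those of Rps4l (2.11 log2 units), Rps15 (1.09) and Rps2 (1.05).

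**Figure D3:**
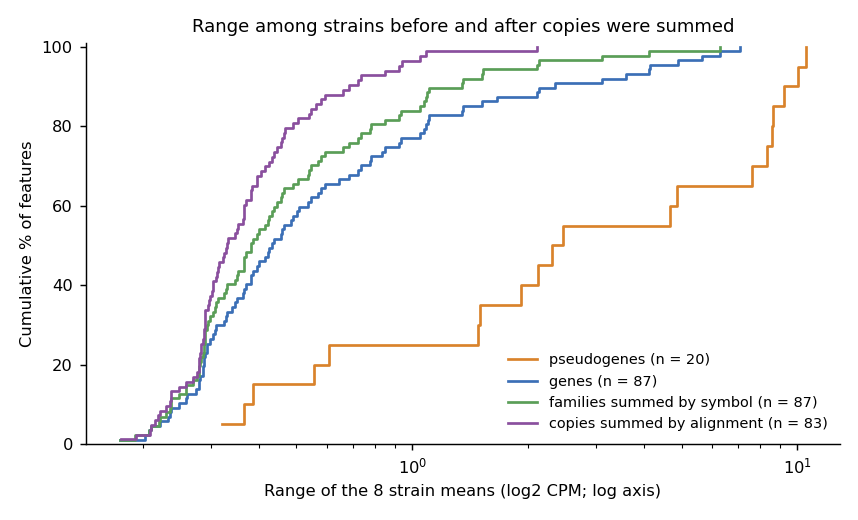
Cumulative percent of members against the range of the 8 strain means in log2 units (log axis), for tested genes and pseudogenes, families and copy groups. The copy groups lie farthest left, with a median of 0.33 log2 units, and the pseudogenes farthest right, with a median of 2.39.

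Many proteins still differed after copies were summed, and a few of them are named here. Rps15, a small subunit protein (ENSMUSG00000063457, chromosome 10, 80292453 to 80294114, plus strand), has no near-identical copy among the genes of the count table. Copies outside that table were not examined, here or for the genes below. It was at 74.8 to 96.4 CPM in Cast, with a median of 85.4 CPM, and no library of another strain was below 138 CPM. In Cast it was lower than in the mean of the other strains by 0.99 log2 units (SE 0.09, adjusted p = 7.79e-15). Rps2 (chromosome 17, 24718116 to 24721929) was at 152 to 193 CPM in PWK, against 244 CPM or more in every other library but WSB_1, which had 170 CPM. Its log2 fold change in PWK was -0.77 (SE 0.05, adjusted p = 4.14e-20), and its copies each stayed at or below 0.21 CPM as strain means. Rps15 and the genes of the next paragraph other than Rps4l and Rpl21 were chosen after their values were seen.

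Rps4l, a transcribed processed copy of Rps4x without a near-identical copy in the count table (chromosome 6, 148354656 to 148355598), separated 3 strains from 5. Its strain means were 11.3 ± 1.95 CPM in B6, 9.98 ± 1.40 in 129 and 7.46 ± 2.11 in NOD (SD, n = 8 each), and 2.66 to 3.45 CPM in the others. All 24 of those B6, 129 and NOD libraries were at 4.54 CPM or higher, and the highest library of the other strains, in PWK, reached 4.55 CPM, so the groups overlapped by 1 library on each side. Rpl21 was at 91.5 to 111 CPM in AJ and 88.7 to 104 CPM in NOD, above all other libraries but WSB_1 at 138 CPM. In AJ its copy BC004004, at 232 ± 17.2 CPM (SD, n = 8), also had its highest strain mean. The group sum was 333 ± 21.9 CPM in AJ and had strain means of 174 to 227 CPM elsewhere. Rplp1, one of the acidic stalk proteins that recruit translation factors, had strain means of 232 CPM in 129 and 208 CPM in WSB without WSB_1 (246 with it), against 129 CPM in NOD and 139 CPM in B6. Its log2 fold change was 0.46 in 129 (SE 0.08, adjusted p = 4.26e-06) and -0.50 in NOD (SE 0.09, adjusted p = 3.87e-06). Rps14 was lower in AJ by 0.50 log2 units (SE 0.08, adjusted p = 1.27e-06), at 103 to 122 CPM against 137 CPM or more in all other libraries. Rps9 was lower in Cast and PWK (155 and 158 CPM, against strain means of 205 to 232 CPM), by 0.43 (SE 0.08) and 0.39 (SE 0.07) log2 units.

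The second genes for some ribosomal proteins also differed by strain. Rpl3l (ENSMUSG00000002500, chromosome 17, 24727820 to 24736143, plus strand) has no near-identical copy among the genes of the count table. It was at 205 to 268 CPM in PWK, with a median of 240 CPM, and at 119 to 164 CPM in B6, with a median of 140 CPM, and the 2 strains did not overlap. Set against the average of the other strains, its log2 fold change was 0.45 in PWK (SE 0.05, adjusted p = 5.91e-12) and -0.39 in B6 (SE 0.05, adjusted p = 9.76e-09). Rpl3, the general form, ran partly the other way, highest in Cast at 160 ± 15.6 CPM (SD, n = 7) and lowest in PWK at 98.9 ± 5.48 CPM (SD, n = 8). Per kilobase of transcript, the ratio of Rpl3l to Rpl3 was 0.97 ± 0.08 (SD, n = 7) in Cast, 1.18 ± 0.18 in B6, 1.85 ± 0.32 in NOD and 2.35 ± 0.29 in PWK (SD, n = 8). PWK libraries held ratios of 2.01 to 2.95 and Cast libraries 0.85 to 1.07.

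Rpl22l1, the second form of Rpl22, was highest in WSB at 25.5 ± 5.80 CPM (23.6 ± 2.28 without WSB_1) and lowest in PWK at 13.2 ± 0.95 CPM (SD, n = 8). The PWK libraries reached 14.8 CPM and the WSB libraries began at 21.1 CPM. Its log2 fold change was 0.52 in WSB (SE 0.06, adjusted p = 1.17e-10) and -0.57 in PWK (SE 0.07, adjusted p = 8.99e-11). Per kilobase, Rpl22l1 was at 0.15 of the level of Rpl22 in PWK and 0.32 in WSB. Rpl36al was at 0.80 to 0.95 of the level of Rpl36a as strain means, and Rps27l at 0.16 to 0.20 of Rps27. Rpl7l1 was at 0.12 of the level of Rpl7 in PWK and 0.22 in AJ, but Rpl7 is one of the genes whose copy had few counts in Cast and PWK, so this ratio moves with that division. Rps4l stayed between 0.013 and 0.057 of the level of Rps4x. Rpl39l, mostly known from testis, was not above 0.28 CPM in any library and was not tested. With WSB_1 kept, Rps27rt did not pass the test over strains (adjusted p = 0.69), and Rps27 (0.0541), Rpl39 (0.095) and Rpl24 (0.101) missed the threshold. WSB_1 stood at 186 CPM for Rps27 (71.1 to 88.1 CPM in the other WSB libraries) and at 43.8 CPM for Rpl39 (13.3 to 17.3 CPM). Rps19bp1 was higher in PWK at 5.96 ± 0.69 CPM (SD, n = 8) than the strain means of 3.57 to 4.70 CPM elsewhere.

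With libraries scaled by TMM (edgeR's correction for the make-up of libraries), ribosomal protein families were more often lower than higher in NOD. Of 87 families, 45 were lower in NOD than in the mean of the other strains and 4 were higher, against 13.5% and 18.9% of all entries tested. Without WSB_1 the numbers were 60 lower and 5 higher, against 16.9% and 21.6%. The median log2 fold change over families was -0.19 (-0.17 without WSB_1), where the median of all genes was 0.00. Large subunit families (28 of 51 lower) and small subunit families (17 of 36 lower) had medians of -0.20 and -0.19, and the difference between subunits was not tested. Named after their values were seen, families lower in NOD included Rplp1, Rpl37a (-0.35, SE 0.08) and Rpl5 (-0.32, SE 0.08), in log2 fold change. Among those higher were Rpl10a (0.21) and Rpl21 (0.44). The symbol families of Rpl5 and Rpl21 leave out near-identical copies with other symbols. In NOD, Rpl5 held 5.48% and Rpl21 41.0% of the counts of their copy groups, so these 2 values cover only part of each group. With copies summed by alignment, 42 of 83 groups were lower and 2 higher, against 13.5% and 18.9% of entries (59 and 4 without WSB_1, against 16.9% and 21.6%). Unscaled, NOD was not the lowest strain: members took 0.944% of its counts, above the 0.861% of B6 (exact permutation test, adjusted p = 0.0186) and below the 1.04% of PWK (adjusted p = 0.0145), and the other 5 pairs with NOD did not pass. On the TMM scale the summed level of members and copies was 9725 ± 699 CPM (SD, n = 8) in NOD, the lowest strain mean. The permutation test of this summed level over all strains gave p = 0.191, and p = 0.0105 without WSB_1. In exact permutation tests of pairs, NOD differed from 129 (11178 CPM, adjusted p = 0.0141) and AJ (10921 CPM, adjusted p = 0.0384). The other 5 pairs with NOD did not pass. In NOD the measure of short against long transcripts averaged 0.02 log2 units, within the range of the other strains, and cardiomyocyte markers summed to 57674 ± 4562 CPM (SD, n = 8), against strain means of 51951 to 64915 CPM. The part of these measures in the result was not tested.

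Fewer families were lower in each of the other strains than in NOD. In B6, 18 families were lower and 4 higher, against 14.7% and 17.4% of all entries, with a median of -0.09 log2 units, and without WSB_1 27 and 6, against 17.7% and 20.1%. In Cast, 26 were higher and 11 lower, against 30.6% and 29.2%, and without WSB_1 37 and 12, against 33.1% and 31.0%. In PWK, 12 were higher and 19 lower, against 27.0% and 26.5%, and without WSB_1 23 and 21, against 29.7% and 28.7%. In 129, 13 were higher and 3 lower, against 16.8% and 14.4%, and without WSB_1 29 and 4, against 20.3% and 17.1%. In AJ, 10 were higher and 8 lower, against 20.5% and 17.8%, and without WSB_1 21 and 11, against 23.5% and 20.7%. In NZO, 4 were higher and 13 lower, against 22% and 18.5%, and without WSB_1 15 and 14, against 24.9% and 21.6%. In WSB, 41 families were higher and 3 lower, against 25.1% and 19.8%, but without WSB_1 only 12 were higher and 14 lower, against 23.1% and 20.4%, and the median moved from 0.14 to -0.02 log2 units. Counted gene by gene instead of by family, 37 genes were higher and 9 lower in WSB, against 25.1% and 19.9% of all genes, 3 were higher and 47 lower in NOD, against 19.0% and 13.5%, and 6 were higher and 18 lower in NZO, against 22.1% and 18.5%. These 8 contrasts share libraries, since each strain also enters the mean that the others are set against.

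**Figure D4:**
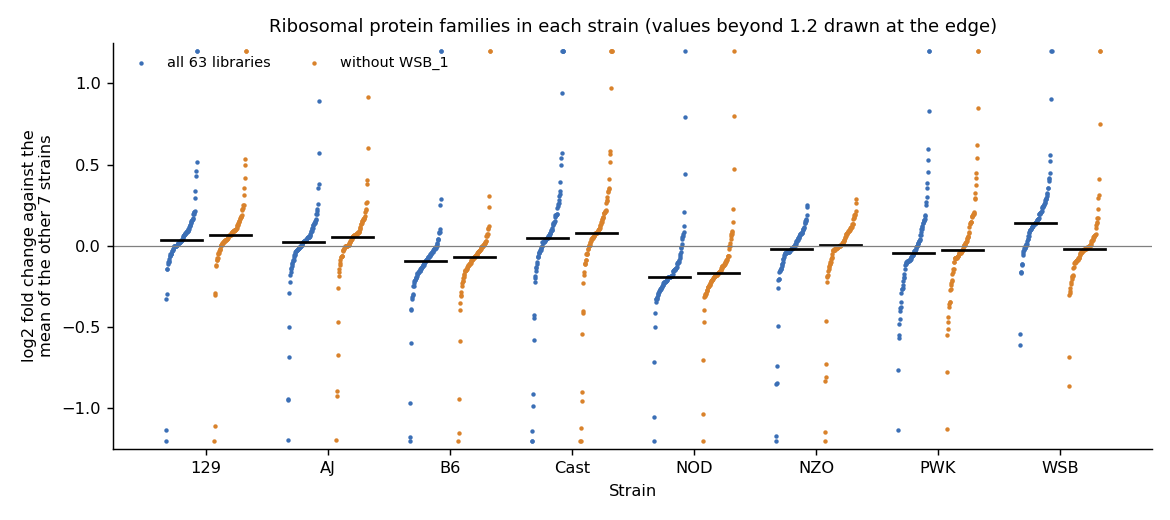
Log2 fold change of each of the 87 tested ribosomal protein families in each strain against the mean of the other 7, with all 63 libraries and without WSB_1. Points are families, the black line is their median, and values beyond 1.2 are drawn at the edge. The NOD median is -0.19 and -0.17, and the WSB median moves from 0.14 to -0.02.

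As a whole, members took close to 1% of the counts in every strain. The share was 0.861 ± 0.048% in B6, 0.918 ± 0.084% in 129, 0.944 ± 0.056% in NOD, 0.944 ± 0.164% in NZO, 1.01 ± 0.07% in AJ, 1.01 ± 0.09% in Cast, 1.04 ± 0.04% in PWK and 1.11 ± 0.41% in WSB (SD, n = 8, and 7 for Cast). WSB was at 0.963 ± 0.052% (SD, n = 7) without WSB_1. A two-sided permutation test over libraries gave p = 0.0688 with all libraries and p = 0.00235 without WSB_1. Of 28 pairs of strains, 7 differed in exact permutation tests at an adjusted p of 0.05, and of those pairs B6 and PWK alone did not overlap (adjusted p = 0.00435). Mitochondrial genes took between 17.8% of the counts (PWK) and 29.2% (B6) as strain means, and with them left out of the total the share of members was 1.17% in NOD to 1.30% in Cast over the 7 strains other than WSB, none of the 28 pairs differed in the exact permutation tests (7 had an unadjusted p under 0.05), and the permutation test over strains gave p = 0.466 (0.196 without WSB_1).

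The part of the members' counts on pseudogenes separated Cast and PWK from the rest. It was 3.13 ± 0.21% (SD, n = 7) in Cast and 3.49 ± 0.09% (SD, n = 8) in PWK, and 8.06 to 8.18% as strain means in the other 6. No Cast or PWK library exceeded 3.6%, and no other library was below 7.81%. The permutation test over strains gave p = 1e-05, the smallest that 100000 resamples can give, and 13 of 28 pairs differed: each of Cast and PWK against each of the other 6, and Cast against PWK (difference 0.359 points, adjusted p = 0.00502). Counted by GENCODE's gene types instead of by symbol, the share was 2.21 ± 0.25% (SD, n = 7) in Cast, 1.29 ± 0.07% (SD, n = 8) in PWK and 4.98 to 5.10% in the others. The order of Cast and PWK thus turned with the way pseudogenes were counted: by type, Cast was above PWK by 0.928 points (exact permutation test, adjusted p = 0.000335).

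**Figure D5:**
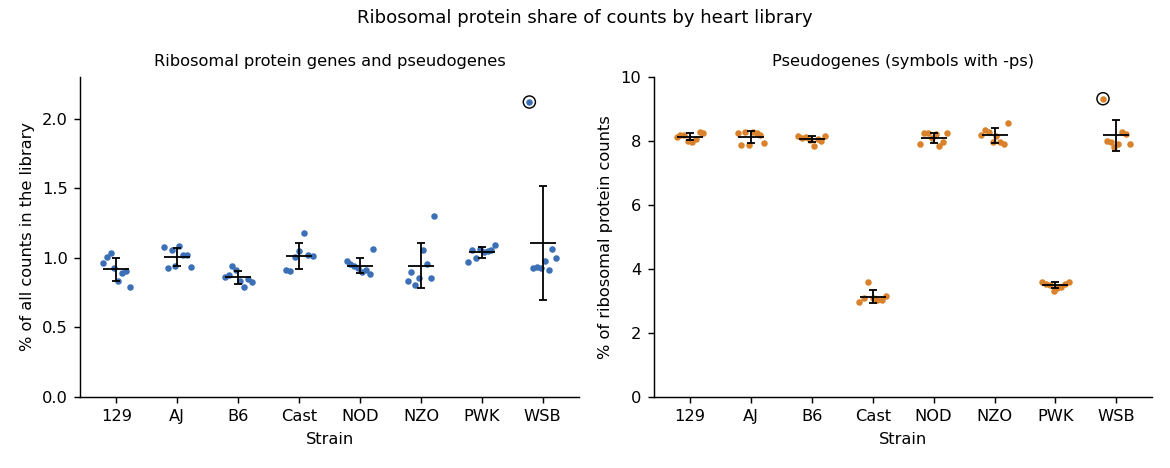
Percent of each library's counts on ribosomal protein genes and pseudogenes, and percent of those counts on pseudogenes, by strain. Points are libraries, bars are mean ± SD and a circle marks WSB_1. Members take about 1% of counts in all strains but 2.12% in WSB_1, and the pseudogene part is 3.13% in Cast and 3.49% in PWK.

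Levels per kilobase of transcript placed Rplp1, Rps29 and Rps15 highest among the members, at 361, 344 and 318 CPM per kilobase over all libraries. The member whose 8 strain means followed the summed level of the family most closely was Rplp2, the other acidic stalk protein (Pearson r = 0.93 over 8 strain means, 0.91 without WSB_1), as a description, since the member is part of the sum.

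Neighbouring genes of translation and ribosome assembly were read from the same test, from lists taken up as whole pathways. Ribosomal proteins whose symbols fall outside the rule all differed (3 of 3 tested). Fau, which encodes a small subunit protein fused to a ubiquitin-like domain, was at 66.0 ± 7.33 CPM (SD, n = 7) in Cast and 19.3 ± 2.78 CPM (SD, n = 8) in B6. Of translation factors 37 of 42 differed, of ribosome biogenesis factors 33 of 40, of RNA polymerase I genes 10 of 14 and of regulators of TOP mRNAs and ribosome synthesis 14 of 16, all set beside 89.4% of all genes. Without WSB_1 these were 41 of 42, 35 of 40, 11 of 14 and 16 of 16, beside 92.3% of entries in the fit of summed families. The elongation factor subunit gene Eef1g was at 190 ± 10.3 CPM in 129 and 36.3 ± 2.93 CPM in PWK (SD, n = 8), and Eef1a1, another elongation factor gene, at 1372 ± 84.4 CPM in PWK and 701 ± 36.1 CPM in B6. Their own copies were not examined. In NOD, 5 of 42 translation factors were higher and 8 lower, and 1 of 40 biogenesis factors was higher and 1 lower, against 19.0% and 13.5% of all genes. Median log2 fold changes in NOD were -0.02 for the biogenesis list, -0.03 for translation factors and 0.02 for the regulators. RNA polymerase I genes had -0.08, with 1 of 14 higher and 4 lower. The 3 ribosomal proteins outside the rule had -0.17, with 2 lower, and the ribosomal protein families had -0.19. Without WSB_1, 5 of 40 biogenesis factors, 11 of 42 translation factors and 6 of 14 RNA polymerase I genes were lower, beside 2762 of 16375 genes.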

How the data were processed

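The 63 libraries are polyA RNA from hearts of 8 strains, per the labels' protocols. The authors deposited expected counts, that is estimated and not scaled, for each gene of GRCm38, per the submitters' processing notes. Which aligner and counter were used, and whether strand was, is not given in the sources used. Of the values 18.4% were not whole within 1e-06, and each listed gene had a value above 0 in at least 32 libraries. The deposited log2 table, variance-stabilised by the authors with DESeq2 per the submitters' processing notes, served only as an alternative.

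Rounded counts went into edgeR 4.0.16 (R 4.3.3). The filter filterByExpr with a minimum count of 10 kept 16425 genes. TMM gave scaling factors of 0.828 to 1.16, which enter every CPM printed. A robust quasi-likelihood fit with 1 coefficient for each strain and 55 residual degrees of freedom served for the F test of all strains and for setting each against the mean of the other 7, all 7 weighted alike. P-values were adjusted by Benjamini-Hochberg over all genes tested, with a threshold of 0.05. A range is the highest minus the lowest of 8 strain means on the log2 CPM scale (prior count 2). Families sum a gene and its "-ps" symbols. Copy groups sum transcripts aligned by blastn 2.17.0 (95% identity over 50% of the shorter, GENCODE M21). Only transcripts of genes in the count table were aligned, so copies elsewhere in the genome were not sought. Shares of counts were compared by permutation tests with 100000 resamples, or exactly for pairs. Levels per kilobase use 1 principal transcript per gene. Gene positions are from GENCODE M21. Intervals and floors cover counting error only.

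Alternatives were DESeq2 (version 1.42.0) size factors and tests, limma (version 3.58.1) on the deposited log2 values, other filters, a replicate block and leaving out libraries. The procedure was tested on simulated data. The members and lists were chosen with earlier results of these data known, and leaving out WSB_1 beside family counts, the test of copy groups and the family medians without it, and GENCODE's pseudogene types were chosen after seeing the data. Named were the 8 pseudogenes, with their genes, and the 8 genes with the widest range among those past the test whose mean log2 CPM reached 1, the second genes of ribosomal proteins, the families of widest and narrowest range, and the gene farthest up and down in each strain. Others named are said to be chosen later.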

Additional observations from a re-analysis of the deposited data

Results flagged for a closer look

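Within strains, a library was set apart where its gap to the nearest of the others, as a part of the strain's whole range, passed Dixon's critical value, which chance does in about 1 of 20 groups. Of 295 groups of values 56 were set apart (19.0%), and 27 of these were in WSB_1.

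In WSB_1 members took 2.12% of the counts (0.916 to 1.06% in the other WSB libraries), and 9.32% of the members' counts were on pseudogenes (7.81 to 8.28%). In CPM, with the other 7 WSB libraries in brackets, the large subunit members were Rpl3 at 189 (93.9 to 121), Rpl7 at 237 (138 to 159), Rpl10 at 34.2 (15.4 to 24.3), Rpl12 at 207 (99.4 to 119), Rpl19 at 29.9 (6.26 to 16.2), Rpl22 at 102 (58.6 to 68.2) and Rpl22l1 at 38.9 (21.1 to 28). The others of that subunit were Rpl27 at 14.7 (6.38 to 8.25), Rpl31 at 262 (102 to 117), Rpl36a at 107 (41.4 to 47.2), Rpl36al at 81.7 (35.9 to 43.1) and Rpl39 at 43.8 (13.3 to 17.3). The small subunit members were Rps4x at 337 (193 to 217), Rps13 at 166 (88.3 to 104), Rps16 at 132 (41.3 to 50.01), Rps27 at 186 (71.1 to 88.1) and Rps27l at 47.3 (20.4 to 25.6). The pseudogenes were Rpl9-ps6 at 229 (125 to 156), Rpl10a-ps1 at 42.4 (0.218 to 10.7), Rpl17-ps8 at 260.1 (126 to 149), Rpl19-ps11 at 308 (131 to 149.8), Rpl27-ps3 at 182 (69.7 to 90.3), Rpl31-ps8 at 63.9 (11.9 to 22.1), Rps12-ps3 at 190.0 (56.7 to 68.9) and Rps16-ps2 at 49.9 (14.4 to 20.8).

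NOD_8 was set apart, as the highest NOD library, for 9 of the members put to this rule, in CPM: Rpl17-ps8 at 151 (118 to 126 in the other NOD libraries), Rpl19-ps11 at 163 (127 to 141), Rpl31 at 121 (91.1 to 103), Rpl36al at 45.2 (33.4 to 38.6), Rps13 at 104 (76.4 to 87.4), Rps16 at 48.9 (38.0 to 42.6), Rps27 at 83.1 (67.6 to 72.6), Rps27l at 25.2 (19.3 to 21.2) and Rps27rt at 1.74 (0 to 0.624). Its measure of short against long transcripts, 0.31 log2 units, was the highest after that of WSB_1. NZO_8 was set apart, as the highest NZO library, for Rpl3 at 169.6 CPM (105 to 132), Rpl31-ps8 at 29.2 (13.8 to 18.9), Rps4x at 281 (179.7 to 224) and Rps16-ps2 at 25.1 (12.6 to 18.4).

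Single values in other libraries were set apart too. In 129_3 these were Rpl27-ps3 at 86.0 CPM (70.9 to 77.4 in the other 129 libraries), Rpl36a at 51.9 (43.0 to 46.9) and Rps19bp1 at 5.48 (3.41 to 4.29). Rps27rt was at 2.01 CPM in 129_8 (0 to 0.666), Rpl31-ps8 at 9.95 in B6_2 (14.8 to 17.9), Rps12 at 4.53 in NZO_5 (0.172 to 1.62), Rpl36al at 70.7 in NZO_6 (40.6 to 50.01), Rpl37rt at 3.48 in NOD_5 (0.681 to 1.19) and Rpl9 at 15.6 in PWK_6 (9.43 to 12.1). PWK_4 had Rpl10a-ps1 at 0.331 CPM (0 to 0.0622) and Rps27l at 21.6 (16.6 to 18.4). Among Cast libraries, Cast_3 had 3.58% of the members' counts on pseudogenes (2.97 to 3.15%), Cast_6 had Rps4x at 245 CPM (194 to 214), and Cast_8 had Rpl9-ps6 at 0.299 CPM (0 to 0.0905). Cast_7 had Rpl10a-ps1 at 0.0767 CPM (0 in the others) and Rps4l at 1.11 CPM (2.42 to 3.30).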

How the results depend on the processing

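Of the counts and tests over members, 460 of 504 recomputed values kept their direction and their side of the threshold or stayed within 1.5 times the count, and of the other values (single members, copy groups, family medians and Cast against PWK) 561 of 577 did. Of the 577, 3 changed direction. Without WSB_1 the median log2 fold change of families moved from 0.143 to -0.0228 in WSB and from -0.0188 to 0.00206 in NZO. With pseudogenes counted by GENCODE type, the share on pseudogenes in Cast minus PWK went from -0.359 to 0.928 points. Among the counts and tests over members, leaving out WSB_1 gave more changes than any other single setting, but fewer than the other settings together. Without WSB_1, genes higher were 27 in 129, 21 in AJ, 7 in B6, 5 in NOD, 17 in NZO and 13 in WSB, with 18 lower in WSB. Families higher were 29 in 129, 21 in AJ, 15 in NZO, 23 in PWK and 12 in WSB, with 14 lower in WSB. Pseudogenes were 2 lower in AJ, 4 lower in NOD and 7 higher in WSB, and the permutation p for the share of counts on members fell to 0.00235. Of all 16375 genes tested without WSB_1, 3330 were higher in 129, 3860 in AJ, 3304 in B6 and 3553 in NOD. Higher in NZO were 4087 and in WSB 3787, and 3392 were lower in AJ, 2762 in NOD and 3345 in WSB. When only genes whose mean log2 CPM reached 1 were kept, fewer pseudogenes were tested: 10 differed, 2 were higher in Cast, 1 higher in PWK, 1 lower in NOD, 0 lower in AJ, B6 and NZO and 1 lower in WSB, where 1 family was lower. With no filter on low counts 1 pseudogene was lower in WSB. DESeq2 tests gave 1 pseudogene lower in 129, 2 in AJ and 2 in WSB. Without Cast_1, Cast_5 and Cast_6, 17 genes and 12 families were higher in Cast, and 1 pseudogene lower in WSB. Without AJ_2, AJ_7 and AJ_8, 6 genes and 5 families were higher and 5 families lower in AJ, and 1 pseudogene lower in WSB. Limma on the variance-stabilised values gave 22 genes and 9 pseudogenes higher in WSB, and pseudogenes lower were 3 in 129, 2 in AJ, 2 in B6 and 3 in WSB. Families could not be summed on that scale and were not run. Shares over all genes were worked out only for the main fit and without WSB_1, so counts under other settings have no background here. The causes of these changes were not tested, apart from the fewer genes under a stricter filter and the fewer libraries.

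Libraries with the same replicate number showed little common deviation at the median. Over 199 pairs of the same number in different strains, deviations had a median correlation of 0.05, a lowest of -0.16 and a highest of 0.38. Of the 199, 40 were over 0.1. Over 1537 pairs of other numbers the median was -0.01, and whether some numbers share a batch was not tested. With the replicate block 71 genes, 16 pseudogenes and 69 families differed among strains, and 2 pseudogenes were lower in WSB. The share of all genes that differed under the block was not worked out, so these counts have no background. Members near 0 CPM rest on few counts, and the counts of a single copy depend on how reads were assigned.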
